A study of Mus musculus with 18 samples.

Results

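Cyp26b1 and Cyp26a1, which encode enzymes that break down retinoic acid, were followed in frontal cortex at birth (postnatal day 0) in mice that were double mutants of Rxrg and Rarb (dKO) or controls. Both genes were taken by name from a count table of 54532 genes, and each was given in all 18 libraries that the labels describe. The libraries came from 3 regions labelled orbital, medial and dorsal, and each region of each genotype had 3 libraries. The 6 groups were therefore dKO orbital, dKO medial, dKO dorsal, control orbital, control medial and control dorsal tissue. The design text names frontal areas (medial, motor, orbitofrontal) without saying which of them was sampled as dorsal. The alleles, the altered exons, the strain, the sex, the number of pups and the genotype of the controls beyond the word control are not given in the sources used here. By title prefix and index, the libraries formed 3 sets (A, B, C), each with 1 dKO and 1 control row of 3 regions. Sets B and C share a prefix, and their dKO and control rows were paired by neighbouring index. The labels do not state this pairing and do not tie a row to 1 pup. P-values therefore measure only the spread between these libraries, which may in part be technical.

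Retinoic acid, made from vitamin A, enters the nucleus and binds heterodimers of retinoic acid receptors (RARs) and retinoid X receptors (RXRs), which sit on paired DNA half-sites and switch target genes on. Rarb and Rxrg encode 1 receptor of each class. Cytochromes P450 of family 26 oxidise retinoic acid to polar products and so set where in a tissue the signal is low. In the embryo the 3 family members, Cyp26a1, Cyp26b1 and Cyp26c1, lie in largely separate domains, and Cyp26a1 and Rarb are classical genes induced directly by retinoic acid. In the developing mouse forebrain, retinoic acid is made largely in the meninges by the retinaldehyde dehydrogenase Aldh1a2.

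Per the reference annotation (GENCODE M21, mouse genome GRCm38), Cyp26b1 lies on the minus strand of chromosome 6, from 84571414 to 84593908, and has 5352 exonic bases. Cyp26a1 lies on the plus strand of chromosome 19, from 37697808 to 37701528, with 1773 exonic bases. Cyp26c1 starts at 37685581 on the same strand and ends at 37693398, which is 4410 bases before the start of Cyp26a1. The promoters of both genes are shown because the altered receptors act through paired half-sites in such windows. They are RefSeq windows of build GRCm38.p6, 250 bases before to 50 after the start, in lower case, with a direct repeat of half-sites 1, 2 or 5 bases apart in capitals.
Cyp26a1, chr19:37697558-37697857, plus strand: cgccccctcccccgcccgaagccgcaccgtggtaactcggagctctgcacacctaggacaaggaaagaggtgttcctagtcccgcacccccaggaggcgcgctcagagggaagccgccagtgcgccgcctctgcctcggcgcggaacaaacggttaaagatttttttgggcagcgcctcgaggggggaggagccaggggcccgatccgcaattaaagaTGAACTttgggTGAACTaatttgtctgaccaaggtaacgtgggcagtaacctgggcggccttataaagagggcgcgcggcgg
Cyp26b1, chr6:84593761-84594060, minus strand: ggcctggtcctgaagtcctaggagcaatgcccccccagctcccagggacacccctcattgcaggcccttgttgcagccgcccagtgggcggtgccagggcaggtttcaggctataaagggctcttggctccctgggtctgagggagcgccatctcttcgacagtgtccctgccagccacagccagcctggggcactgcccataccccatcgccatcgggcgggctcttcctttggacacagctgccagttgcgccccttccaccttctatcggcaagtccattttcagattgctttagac
The half-site AGGTCA was searched on both strands, as were the variant AGTTCA, the further variant GGGTCA and the last variant GGTTCA. The Cyp26a1 window held 1 repeat with a spacing of 5, on the strand opposite to the gene, 32 to 16 bases before the start. Of 32851 promoter windows of this length, 0.0974% held a repeat with that spacing and 0.588% held any of the 3. The window of Rarb, at chr14:16575427-16575726 on the minus strand, also held a repeat with a spacing of 5, 53 to 37 bases before its start. Read in the direction of the half-sites, with the half-sites in capitals, they were as follows.
Cyp26a1 repeat: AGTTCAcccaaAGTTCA
Rarb repeat: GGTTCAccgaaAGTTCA
The Cyp26b1 window held no such letters. Its RefSeq start lies inside the gene annotated above, which starts at 84593908 on the minus strand. The window thus reaches less far before the annotated start than that of Cyp26a1 does. A match is a description of the letters, not of binding.

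Libraries held 28957325 to 93093398 counted fragments, and set A was the deepest, with 52317649 to 58941490 in its dKO libraries and 70636819 to 93093398 in its control libraries. The cortical neuron gene Neurod6 was at 848 to 1834 CPM (a gene's counts scaled to the library total, the usual depth-corrected level). The summed level of 6 choroid plexus genes was 7.45 to 13.01 CPM in dKO and 2.75 to 24.8 CPM in control libraries, with Ttr at 0 to 2.99 CPM and Kcnj13 at 1.75 to 17.9 CPM over all 18. That of 6 olfactory bulb genes was 5.67 to 30.2 CPM in dKO and 2.14 to 36.6 CPM in control libraries, with Tbx21 at 0.115 to 1.36 CPM. The targeted genes were counted over all exons, including any that were not altered. Rarb was lower in the dKO library in 9 of 9 pairs of a region and set, with 1.19 to 4.85 CPM in dKO and 3.50 to 13.9 CPM in control libraries. Rxrg was lower in 8 of 9 pairs, with 0.377 to 2.90 CPM in dKO and 1.64 to 30.5 CPM in control libraries, the exception being orbital set A with 2.90 CPM in dKO and 2.35 CPM in control tissue. Xist, the RNA that coats an inactive X, had 9.45 to 31.4 CPM in dKO tissue of sets A and C, against 0 to 0.155 CPM elsewhere. The Y-linked Ddx3y had 0.0339 to 0.203 CPM in that dKO tissue, 104 to 119 CPM in set B dKO tissue and 58.3 to 88.1 CPM in controls. In sets A and C the genotype thus cannot be told apart from this difference, so set B is also given on its own.

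Cyp26b1, known in mouse embryos for clearing retinoic acid from hindbrain, limb and gonad, was the more abundant member. Per length, it had a median of 4.17 CPM per kilobase of exon over the 18 libraries, against 0.782 for Cyp26a1. In the 16 libraries with 10 or more counts of Cyp26a1, Cyp26b1 was 1.97 to 15.03 times as high per length, with a median of 4.75. The third enzyme, Cyp26c1, had 2 counts in 1 orbital dKO library and 5 counts in 1 orbital control library, and 0 in the other 16. A count of 0 allowed up to 0.0322 to 0.104 CPM in these libraries (3 counts of the library total). This covers counting error only, and Cyp26c1 passed no filter on low counts, so it was not tested.

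**Figure D1:**
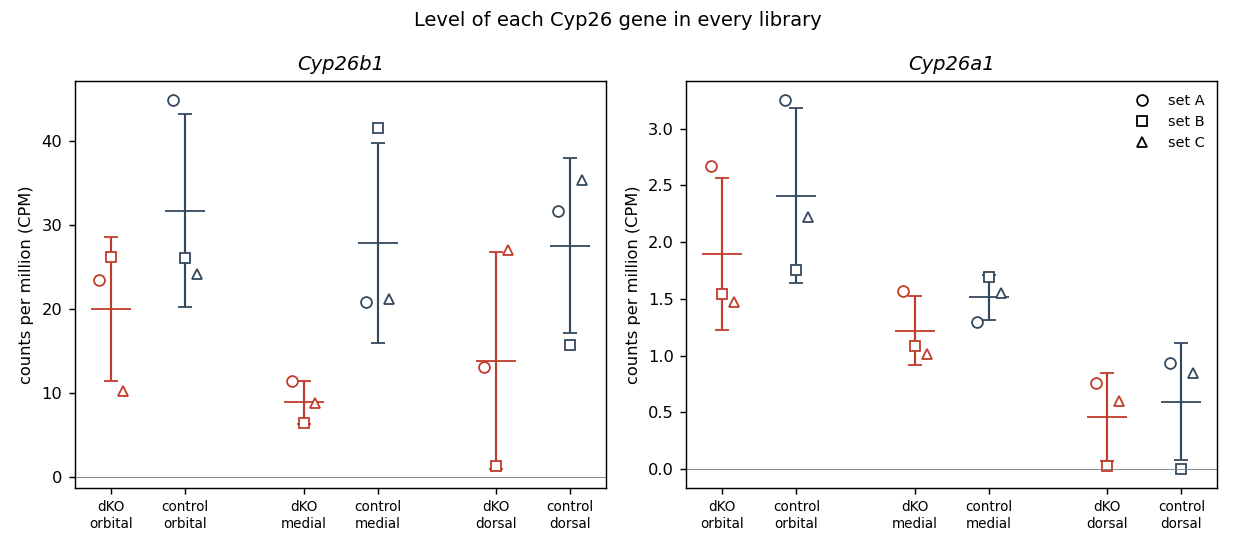
CPM (vertical axes, linear) of Cyp26b1 (left panel) and Cyp26a1 (right panel) in dKO (red) and control (dark) tissue of each region, with a marker for the set, a horizontal line for the mean and bars for the SD of 3 libraries. For Cyp26b1 the 3 medial dKO libraries (6.42 to 11.5 CPM) lie below the 3 medial controls (20.8 to 41.5 CPM), and for Cyp26a1 both genotypes are lowest in dorsal tissue.

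Whether the double mutation altered Cyp26b1 was asked in each region. In medial tissue Cyp26b1 had 11.5, 6.42 and 8.84 CPM in dKO tissue of sets A, B and C, against 20.8, 41.5 and 21.2 CPM in the controls. Every dKO library lay below every control. Among all 18730 genes tested between dKO and control in medial tissue, 2.08% passed an adjusted p of 0.05. The share of all genes whose groups did not overlap is not given. Statements on overlap, here and below, therefore only describe the values. The means were 8.92 ± 2.55 CPM in dKO and 27.9 ± 11.9 CPM in control tissue (SD, n = 3 each). The log2 fold change was -1.76 (SE 0.675), with an adjusted p of 0.207 in edgeR's quasi-likelihood test (Benjamini-Hochberg), so Cyp26b1 was not among the genes that passed. It passed when the filter on low counts was left out (adjusted p = 0.0140, edgeR). Over the alternatives tried, 19 to 1120 of all genes passed in this comparison. In bulk tissue, fewer cells that express a gene and less RNA per cell cannot be told apart.

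In orbital tissue the dKO libraries had 23.5, 26.2 and 10.2 CPM of Cyp26b1 and the controls 44.9, 26.03 and 24.2 CPM. The groups overlapped, since the set B values were nearly the same in both genotypes. The means were 19.97 ± 8.56 CPM in dKO and 31.7 ± 11.5 CPM in control tissue (SD, n = 3 each). The log2 fold change of -0.66 (SE 0.654) had an adjusted p of 0.689 (edgeR), where 0.0374% of all genes tested passed.

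In dorsal tissue Cyp26b1 had 13.2, 1.33 and 27.1 CPM in dKO and 31.6, 15.7 and 35.3 CPM in control libraries. The set B dKO library, with 52 counts of Cyp26b1 among 39158792, was the lowest of all 18, and the set C dKO library lay inside the range of the controls. The means were 13.9 ± 12.9 CPM in dKO and 27.5 ± 10.4 CPM in control tissue (SD, n = 3 each), and the log2 fold change was -1.03 (SE 0.660, adjusted p = 0.836, edgeR), where 0.0214% of all genes passed. Without the dKO library of set B the log2 fold change was -0.49, and without that of set C it was -2.35.

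Within the sets, the dKO library was below its control for Cyp26b1 in 8 of 9 pairs. The log2 difference ranged from -3.52 in dorsal set B to 0.10 in orbital set B, the single pair in which dKO was higher. The regions of a set share rows, so the 9 pairs are not separate comparisons. The labels equally allow the control rows of sets B and C to be exchanged. Then dKO would also be higher in a dorsal pair (27.1 against 15.7 CPM), beside an orbital one (26.2 against 24.2 CPM). In set B, whose libraries had the low Xist and high Ddx3y of males in both genotypes, the log2 differences were 0.10 (orbital), -2.75 (medial) and -3.52 (dorsal). In sets A and C they lay between -1.37 and -0.35.

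**Figure D2:**
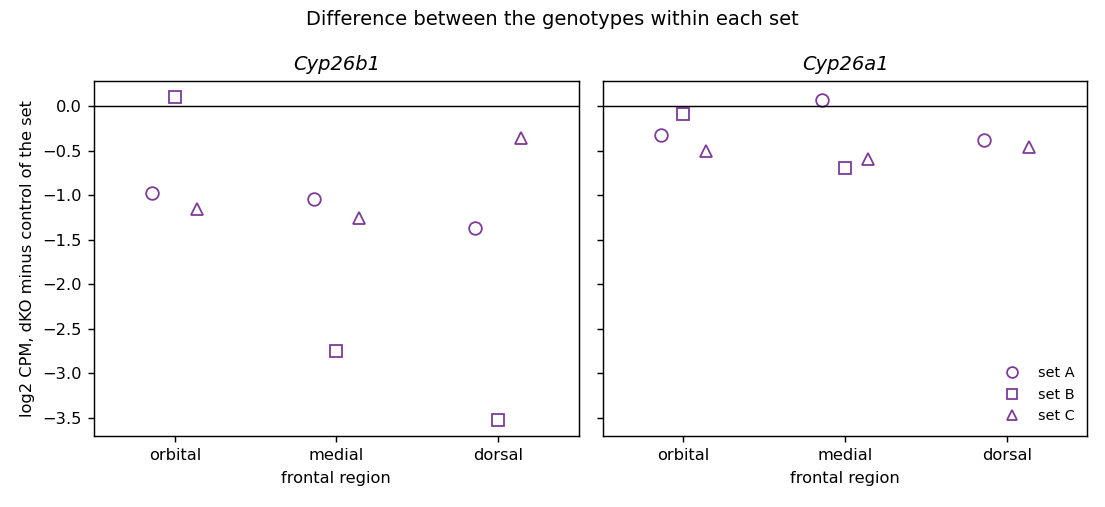
Difference of log2 CPM (vertical axis), dKO minus control of the same set, for Cyp26b1 (left) and Cyp26a1 (right) in each region, with a marker for the set and a line at 0. Of the 9 Cyp26b1 points, 8 are below 0, and the widest spread is in dorsal tissue; Cyp26a1 has no point for dorsal set B, where both libraries had at most 1 count.

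When the counts of the 3 regions of a row were summed, Cyp26b1 was at 16.0, 10.6 and 15.2 CPM in the dKO rows and at 32.5, 28.6 and 26.8 CPM in the control rows of sets A, B and C. The rows of the 2 genotypes did not overlap, and the control rows differed from each other by less than the gap to the highest dKO row. The log2 fold change was -1.13 (SE 0.191, unadjusted p = 0.000330), which ranked 22 among 20083 genes by p. The adjusted p was 0.295 in edgeR's quasi-likelihood test, where 5 genes (0.0249%) passed. The number of all genes that passed in the sums ran from 3 to 359 over all alternatives. DESeq2 on the same sums gave -1.12 with an adjusted p of 9.76e-05, and edgeR without the filter gave -1.15 with an adjusted p of 0.0208. Over the other alternatives tried, the adjusted p lay between 0.120 and 0.9998 and the log2 fold change between -1.31 and -0.99, with 0.120 without the control row of set B and 0.9998 without the dKO row of set B.

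Markers of other cell types moved with the medial comparison, where 2.08% of all genes passed. Marker genes said to have risen or fallen, here and below, passed an adjusted p of 0.05 (edgeR). Of 16 cell cycle genes 13 rose in medial dKO tissue, and all 16 had positive log2 fold changes. Their summed level was 429 to 708 CPM in dKO against 131 to 217 CPM in control libraries. Of 10 progenitor genes (radial glia, intermediate progenitors) 4 rose, and all 10 had positive log2 fold changes. Their summed levels were 833 to 1235 CPM in dKO and 518 to 591 CPM in control libraries. Of 7 genes of claustrum and insula 2 fell, and all 7 had negative log2 fold changes. Their summed levels were 1398 to 1505 CPM in dKO and 1657 to 1738 CPM in control libraries. Of 6 olfactory bulb genes, 1 of which is also in the progenitor list, 1 rose, while 3 had positive and 3 negative log2 fold changes. Their summed levels of 13.08 to 30.2 CPM in dKO and 3.38 to 9.13 CPM in control libraries did not overlap. Of 8 astrocyte genes 1 rose and all 8 had positive log2 fold changes, of 12 deep layer neuron genes 2 fell, and of 10 upper layer neuron genes 1 fell, with summed levels that overlapped between the genotypes in all 3 lists. Summed levels also did not overlap for lists with 0 genes past the threshold in edgeR. Interneuron genes had 612 to 854 CPM in dKO and 507 to 568 CPM in control libraries. Microglial genes had 247.5 to 281.8 CPM and 142.7 to 246.4 CPM, and hippocampal genes 168 to 308 CPM and 129 to 165 CPM. Of these genes 6 of 12, 11 of 12 and 4 of 7 had positive log2 fold changes, and DESeq2 called 3, 3 and 1. The part of all these lists in the Cyp26b1 values was not tested.

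Cyp26a1, known for clearing retinoic acid at the posterior end of the mouse embryo, was low throughout and was lowest in dorsal tissue of both genotypes. In orbital tissue it had 2.67, 1.54 and 1.47 CPM in dKO tissue of sets A, B and C, against 3.26, 1.75 and 2.22 CPM in the controls. In medial tissue it had 1.57, 1.08 and 1.01 CPM in dKO and 1.30, 1.69 and 1.55 CPM in control libraries. In dorsal tissue it had 0.764, 0.0255 and 0.597 CPM in dKO and 0.934, 0 and 0.850 CPM in control libraries. The set B dorsal libraries held 1 count in dKO and 0 counts in control tissue, and a count of 0 there allows up to 0.104 CPM. The genotypes overlapped in every region and in the summed rows.

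The means of Cyp26a1 were 1.90 ± 0.673 CPM in dKO and 2.41 ± 0.770 CPM in control orbital tissue, 1.22 ± 0.302 CPM in dKO and 1.52 ± 0.200 CPM in control medial tissue, and 0.462 ± 0.387 CPM in dKO and 0.595 ± 0.517 CPM in control dorsal tissue (SD, n = 3 each). The fitted log2 fold changes between dKO and control were -0.37 (orbital, SE 0.760), -0.46 (medial, SE 0.773) and -0.47 (dorsal, SE 0.817), with adjusted p of 0.871, 0.850 and 0.966 (edgeR). None passed, and each was smaller than its SE, which is itself derived from the F statistic of the same test. Summed over regions the log2 fold change was -0.51 (SE 0.297, adjusted p = 0.669, edgeR). Of the 8 pairs of a region and set with more than 3 counts in both libraries, dKO was lower in 7, and the exception was medial set A. In dorsal tissue the fitted sign turned positive without the dKO library of set B (0.06) or without the control library of set C (0.16).

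How the enzymes differed between regions was asked within each genotype. Cyp26a1 was higher in orbital than in dorsal tissue, and higher in medial than in dorsal tissue, in 6 of 6 rows. Orbital exceeded medial tissue in 6 of 6 rows by CPM, and in 5 of 6 after TMM scaling (the library scaling used in the fits). That scaling put the set B control row, with 54 orbital and 59 medial counts, in the other order. An exact permutation test of the order of the 3 regions within the 6 rows, added after the values were seen, gave p = 0.000129 for Cyp26a1, the smallest that 6 rows can give, and p = 0.00167 after TMM scaling (Friedman's statistic, which tests no particular order). Without set B, where dorsal tissue held 1 and 0 counts, the exact permutation p was 0.00463 by CPM, again the smallest that 4 rows can give. The same exact permutation test gave p = 0.252 for Cyp26b1, and these were the 2 genes tested in this way. Since the order had been seen before the test was added, these p-values describe the rows and give no separate support for the order.

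Where both libraries had more than 3 counts, the log2 difference of Cyp26a1 between orbital and dorsal tissue was 1.19 and 1.70 in dKO and 1.23 and 1.64 in control rows. In set B, orbital tissue was 60.4 times dorsal tissue in dKO, with a 95% interval of 10.3 to 2434 from counting error alone (48 counts and 1 count). In the set B controls the dorsal library held 0 counts, and the orbital value of 1.75 CPM was 16.9 times the floor of 3 counts there. This ratio leaves out the counting error of the orbital value (95% interval 1.32 to 2.29 CPM), so it is not a lower bound. The fitted log2 difference between orbital and dorsal tissue was 2.15 in dKO (SE 0.790, adjusted p = 0.472) and 2.03 in controls (SE 0.766, adjusted p = 0.0892, edgeR). Neither passed, where 0.486% of all genes passed in dKO and 15.8% in controls. In controls DESeq2 gave 2.13 with an adjusted p of 0.0229, and edgeR without the filter called the gene in both genotypes (adjusted p = 0.0164 in dKO and 0.00382 in controls). Over all alternatives, 4 to 339 of all genes passed in dKO and 326 to 4128 in controls.

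The medial difference from dorsal tissue was 1.54 in dKO (SE 0.793, adjusted p = 0.333) and 1.55 in controls (SE 0.788, adjusted p = 0.586, edgeR), where 2.09% and 0.491% of all genes passed. The difference of the dKO effect on Cyp26a1 between orbital and dorsal tissue was 0.12 (SE 1.07, adjusted p = 0.979) and between medial and orbital tissue -0.14 (SE 1.02, adjusted p = 0.958, edgeR). With standard errors of this size, such differences were poorly resolved.

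**Figure D3:**
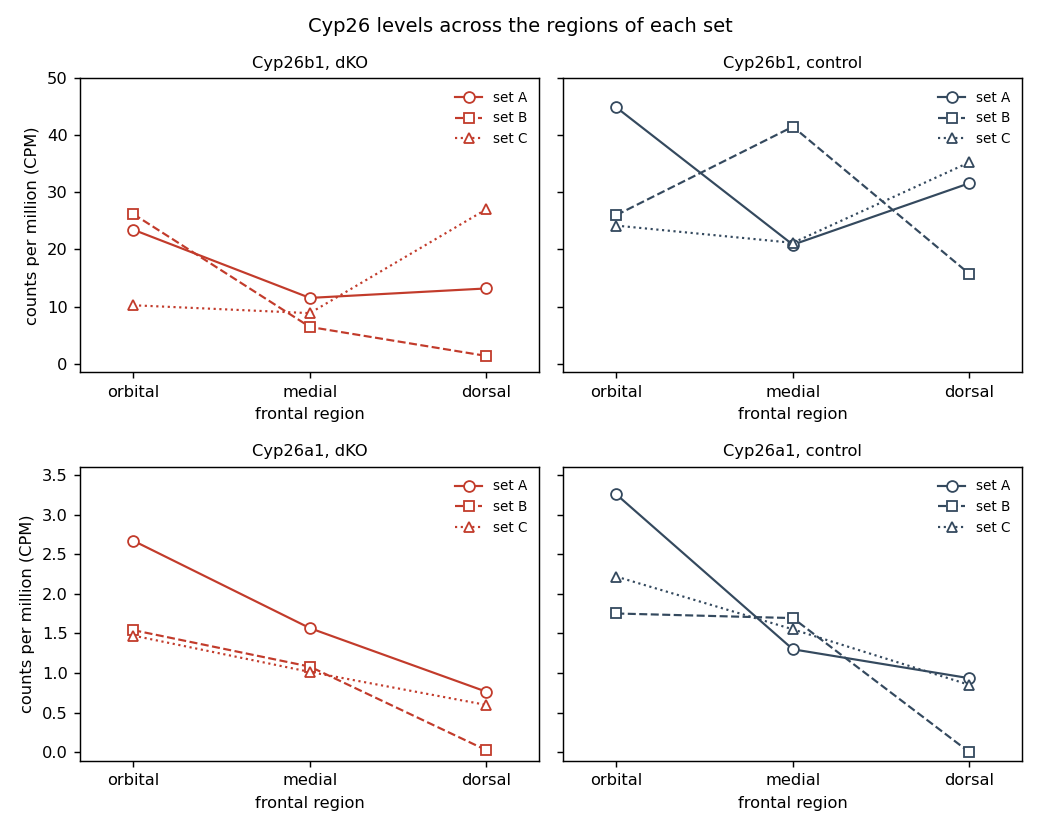
CPM (vertical axes, linear) of Cyp26b1 (upper panels) and Cyp26a1 (lower panels) across orbital, medial and dorsal tissue, dKO rows on the left and control rows on the right, with 1 line for each set. Each Cyp26a1 line ends at its lowest value in dorsal tissue, while the Cyp26b1 lines take 4 different orders in 6 rows.

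For Cyp26b1 the mean levels of the control regions lay close together, at 31.7 CPM (orbital), 27.9 CPM (medial) and 27.5 CPM (dorsal). The fitted log2 differences in controls were 0.07 between orbital and dorsal, 0.00 between medial and dorsal and -0.07 between medial and orbital tissue, with standard errors of 0.659 to 0.677 (edgeR, adjusted p from 0.956 to 0.999). In dKO rows they were 0.86 (SE 0.751, adjusted p = 0.970), -0.48 (SE 0.706, adjusted p = 0.780) and -1.34 (SE 0.691, adjusted p = 0.708). Medial tissue was below orbital tissue in 3 of 3 dKO rows and 2 of 3 control rows. In dKO, edgeR without the filter called that difference (-1.37, adjusted p = 0.0183), where 0.016% of all genes passed with the filter. Over all alternatives, 0 to 197 genes passed there. Without the dKO library of set B, the sign of the difference between orbital and dorsal tissue in dKO turned (-0.36). The dKO effect on Cyp26b1 differed between medial and orbital tissue by a log2 difference of -1.27 (SE 0.958, adjusted p = 0.484, edgeR), and 1.47% of all genes passed that test. The other interaction tests gave 0.78 (SE 0.999, adjusted p = 0.797) for orbital minus dorsal and -0.49 (SE 0.978, adjusted p = 0.9996) for medial minus dorsal tissue, where 0 genes passed in edgeR, 313 and 61 passed in DESeq2, and 12.6% and 5.17% had an unadjusted p under 0.05 in edgeR.

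From the lowest mean to the highest, the 6 Cyp26b1 groups were dKO medial, dKO dorsal, dKO orbital, control dorsal, control medial and control orbital tissue, and no neighbours in that order differed by more than the larger of their SDs. The Cyp26a1 groups followed the regions instead, with dKO dorsal, control dorsal, dKO medial, control medial, dKO orbital and control orbital tissue in that order. There the step between dKO medial and control dorsal tissue, 0.626 CPM, was larger than either SD, and the other 4 steps were not. Across the 18 libraries the log2 CPM of the 2 genes had a Pearson r of 0.55, a description of libraries that share rows, regions and depth.

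**Figure D4:**
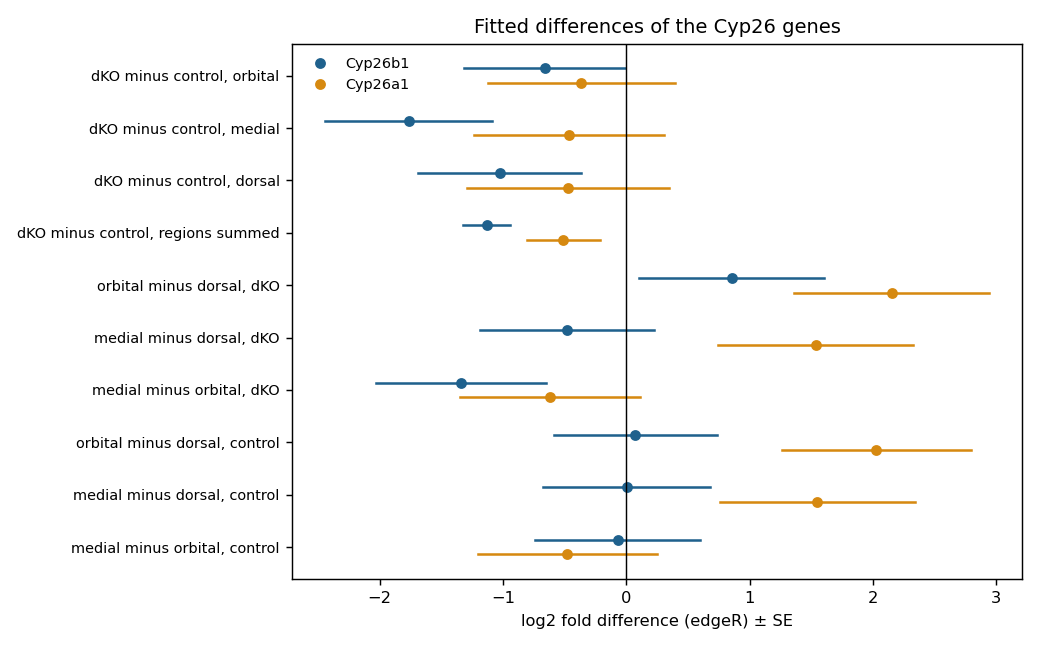
Fitted log2 fold differences (horizontal axis) with standard errors (bars) of Cyp26b1 (blue) and Cyp26a1 (orange) for dKO against control and for pairs of regions within a genotype. Cyp26b1 lies left of 0 in the 4 dKO comparisons, from -1.76 to -0.66, and Cyp26a1 lies right of 0 in the 4 differences of orbital or medial from dorsal tissue, from 1.54 to 2.15.

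The marker lists also differed between control regions, where 15.8% of all genes passed between orbital and dorsal tissue (edgeR). In orbital against dorsal control tissue, 7 of 12 genes of meningeal fibroblasts rose, and all 12 had positive log2 differences. Their summed levels were 2178 to 2936 CPM in orbital and 1070 to 1357 CPM in dorsal libraries. Of 12 microglial genes 8 rose, and all 12 had positive log2 differences. Of 10 upper layer neuron genes 6 fell and 1 rose, with 9 negative log2 differences. Their summed levels were 676 to 810 CPM in orbital and 804 to 1208 CPM in dorsal libraries. Other lists held calls as well, among them 6 of 16 cell cycle, 3 of 10 progenitor and 2 of 5 choroid plexus genes that rose. In these lists 14, 8 and 5 genes had positive log2 differences. Of 8 cortical glutamatergic neuron genes 3 fell, and all 8 had negative log2 differences. In dKO tissue 0 of the 12 meningeal genes passed between orbital and dorsal tissue in edgeR, with or without the filter, or in DESeq2, and 0 had an unadjusted p under 0.05. There the summed levels overlapped at 1105 to 1892 CPM in orbital and 1376 to 1905 CPM in dorsal libraries. Of all genes, 0.486% passed in this dKO comparison and 7.26% had an unadjusted p under 0.05 (edgeR). In the same comparison 3 of 10 upper layer neuron genes fell, and 9 of 10 progenitor genes and 16 of 16 cell cycle genes had positive log2 differences. Of these 2 lists 0 genes passed in edgeR, 4 and 6 had an unadjusted p under 0.05, DESeq2 called 1 and 0, and edgeR without the filter called 2 and 0. The part of these cell types in the Cyp26a1 values was not tested.

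The enzymes stand at the end of a pathway whose other steps were read from 4 lists of 26 genes in all, 23 of them outside the Cyp26 family. None of the 21 such genes tested in a region, or of the 22 tested in the sums, passed between dKO and control in edgeR. In orbital, medial, dorsal and summed tissue 7, 5, 5 and 4 of them had an unadjusted p under 0.05, beside 13.9%, 15%, 6.78% and 9.03% of all genes. Without the mutated Rarb and Rxrg these counts were 6, 4, 3 and 2. With both included, DESeq2 called 2, 2, 0 and 1, and edgeR without the filter called 1, 1, 1 and 0. Without them the counts were 1, 1, 0 and 0 in DESeq2 and 1, 1, 0 and 0 in edgeR without the filter. Of all genes, 2 to 430, 19 to 1120, 2 to 62 and 3 to 359 passed in these comparisons over all alternatives. In orbital tissue 3 of the 21 had a positive and 18 a negative log2 fold change, with a median of -0.48 where that of all genes was -0.03. In medial tissue the split was 12 positive and 9 negative (median 0.07), and in dorsal tissue 10 and 11 (median 0.00).

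The next genes make retinoic acid, supply retinal or, in the case of Dhrs3, remove retinal. Aldh1a2, the main synthetic enzyme of retinoic acid in the meninges, had 75.6, 71.2 and 113 CPM in orbital dKO libraries. The orbital control libraries had 83.4, 109 and 126 CPM. Aldh1a2 had 68.2, 96.1 and 72.3 CPM in medial dKO libraries, against 21.5, 37.7 and 99.1 CPM in medial controls. In dorsal tissue Aldh1a2 had 79.5, 95.7 and 100.8 CPM in dKO and 34.2, 40.2 and 55.3 CPM in control libraries, and only there did the groups not overlap for this gene, with a log2 fold change of 1.04 (SE 0.317, adjusted p = 0.488, edgeR). The 12 meningeal fibroblast genes, Aldh1a2 among them, had summed levels of 1376 to 1905 CPM in dorsal dKO and 1070 to 1357 CPM in dorsal control libraries, also without overlap, with 10 positive log2 fold changes, and their part in the Aldh1a2 values was not tested. Rdh10, which oxidises retinol to retinal, had 8.08, 17.1 and 28.2 CPM in dorsal dKO and 5.04, 5.18 and 8.79 CPM in dorsal control libraries, groups that overlapped (log2 fold change 1.33, SE 0.366, adjusted p = 0.430, edgeR). Dhrs3, which reduces retinal back to retinol, had 22.4, 21.2 and 20.6 CPM in medial dKO and 5.69, 13.7 and 13.8 CPM in medial control libraries. These Dhrs3 groups did not overlap, and the log2 fold change was 0.94 (SE 0.266, adjusted p = 0.0810, edgeR).

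Among uptake and binding proteins, Crabp2, which carries retinoic acid to its receptors, had 16.4, 9.64 and 9.37 CPM in orbital dKO and 26.9, 36.6 and 39.3 CPM in orbital control libraries. The groups did not overlap, and the log2 fold change was -1.53 (SE 0.424, adjusted p = 0.162, edgeR). Stra6, a receptor for retinol uptake, had 40.2, 45.1 and 44.1 CPM in orbital dKO and 78.2, 91.7 and 104 CPM in orbital control libraries, also without overlap (log2 fold change -1.08, SE 0.393, adjusted p = 0.243, edgeR). The 12 meningeal fibroblast genes all had negative log2 fold changes in the same comparison, 0 past the threshold in edgeR (3 at an unadjusted p under 0.05, 2 called by DESeq2, 1 by edgeR without the filter), with summed levels of 1105 to 1892 CPM in dKO and 2178 to 2936 CPM in control libraries. Choroid plexus genes summed to 9.35 to 11.9 CPM in orbital dKO and 19.3 to 24.8 CPM in orbital control libraries. The part of these differences in the Crabp2 and Stra6 values was not tested.

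Among the receptors, Rarb had log2 fold changes of -1.44 (orbital, SE 0.365, adjusted p = 0.148), -1.37 (medial, SE 0.372, adjusted p = 0.0686) and -0.98 (dorsal, SE 0.365, adjusted p = 0.597, edgeR). Rxrg had -2.12 (SE 1.01), -1.75 (SE 0.977) and -3.34 (SE 1.03) there, with adjusted p of 0.361, 0.435 and 0.513 (edgeR). The set B controls had 21.4, 6.12 and 30.5 CPM of Rxrg in these regions, against 1.64 to 4.01 CPM in the controls of sets A and C. The mean log2 difference of Rxrg between dKO and control within a set was -0.49 in set A, -3.32 in set B and -2.68 in set C. Of 8 genes known to be induced by retinoic acid, a list that also holds Cyp26a1, Rarb, Dhrs3, Crabp2 and Stra6, 7 were tested and 0 passed between dKO and control in any region or in the sums (edgeR). In the same order 5, 4, 1 and 2 of these, the mutated Rarb included, had an unadjusted p under 0.05, beside the shares of all genes given above. DESeq2 called 3, 2, 0 and 1, and edgeR without the filter 2, 1, 0 and 0. Nrip1, a corepressor of nuclear receptors, had 465, 391 and 253 CPM in orbital dKO and 286, 189 and 135 CPM in orbital control libraries, which overlapped, and 207, 190 and 201 CPM in medial dKO and 257, 300 and 304 CPM in medial control libraries, which did not. Its log2 fold changes were 0.88 (SE 0.218, adjusted p = 0.148) and -0.62 (SE 0.217, adjusted p = 0.168, edgeR).

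**Figure D5:**
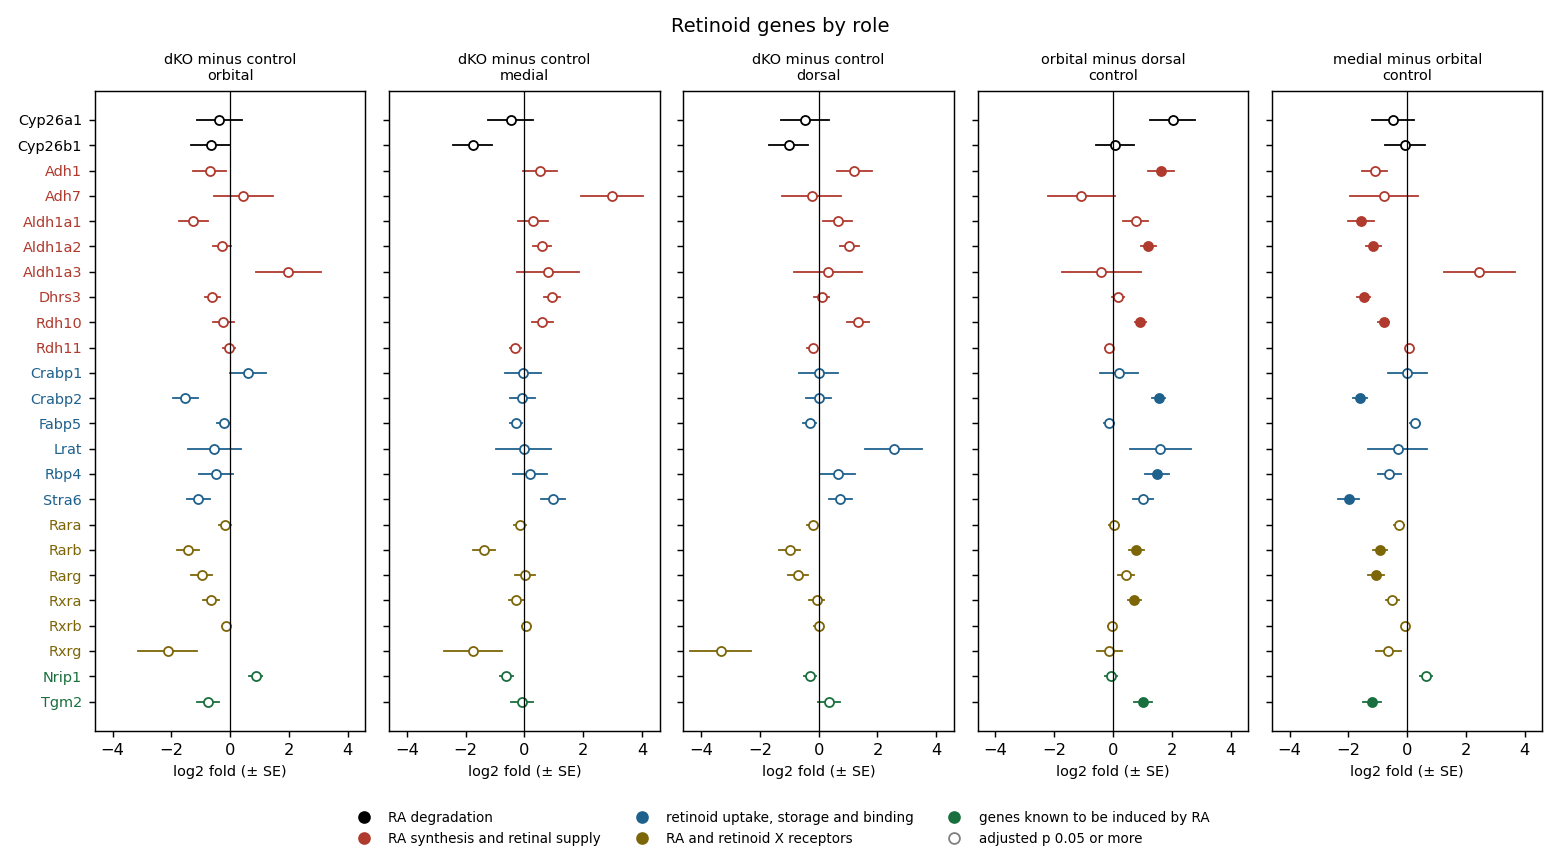
Fitted log2 fold differences (horizontal axes, bars for the standard error) of most of the retinoid genes tested, coloured by role, for dKO minus control in each region and for 2 differences between control regions. Filled points passed an adjusted p of 0.05 (edgeR): none did between dKO and control, while 8 of the genes drawn lie to the right between orbital and dorsal controls and 9 to the left between medial and orbital controls.

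Between the regions of control brains, other steps of the pathway did pass. Between orbital and dorsal controls, 8 of the 21 genes outside the Cyp26 family passed and all 8 were higher in orbital tissue, where 15.8% of all genes passed in either direction. They included Crabp2 (log2 difference 1.56), Adh1 (1.63), Rbp4 (1.51), Aldh1a2 (1.202), Rdh10 (0.93), Rarb (0.80) and Rxra (0.73). Tgm2, a transglutaminase induced by retinoic acid, was higher as well (1.03). Between medial and orbital controls, 9 of the 21 passed and all 9 were lower in medial tissue, where 9.02% of all genes passed, and the lowest were Stra6 (-1.997), Crabp2 (-1.61), Aldh1a1 (-1.56) and Dhrs3 (-1.49). Dhrs3 was also lower in medial than in dorsal controls (-1.30, adjusted p = 0.0182, edgeR). Aldh1a2 is also 1 of the 12 meningeal genes. All 12 were lower in medial than in orbital controls, 7 of them past the threshold (edgeR). Cyp26a1 had a difference of 2.03 between orbital and dorsal controls, with the wider standard error given above, and Cyp26b1 one of 0.07.

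Genes with profiles most like each member were ranked by Pearson correlation of log2 CPM over the 18 libraries among 11096 genes with a mean of at least 5 CPM. For Cyp26b1 they were Ppp1r14c (r = 0.90), Pcbp3 (0.87), Tacr1 (0.85), Cbln2 (0.83), Tmem150c (0.81) and Vgf (0.81). Their Spearman correlations with Cyp26b1 were lower, from 0.63 (Tmem150c) to 0.79 (Tacr1). Cyp26b1 itself had its lowest value, 1.33 CPM, in the dorsal set B dKO library, and the weight of that library in r was not tested. Ppp1r14c, an inhibitor of protein phosphatase 1, had 152, 144 and 141 CPM in medial dKO and 247, 295 and 202 CPM in medial control libraries. Cbln2, which encodes a secreted organiser of synapses, had 131, 47.1 and 65.8 CPM in medial dKO and 161, 271 and 199 CPM in medial control libraries, without overlap, and its lowest value, 6.61 CPM, was in the dorsal set B dKO library, as for Cyp26b1. Since the genes were chosen for their likeness to Cyp26b1 over the same libraries, their differences between dKO and control are given as a description only. For Cyp26a1 they included Pcbd1 (r = 0.86), Cd83 (0.85), Dmrt2 (0.85), Schip1 (0.82) and Selenbp1 (0.82). Dmrt2, a transcription factor with a DM domain, had 0.179 CPM in the dorsal set B dKO library and 1.38 CPM in the dorsal set B control library, the lowest 2 of its 18 values, and 10.2 to 29.9 CPM in orbital and medial tissue. The Spearman correlations of these 5 genes with Cyp26a1 were lower, from 0.49 (Cd83) to 0.75 (Pcbd1). Cyp26a1 had 1 and 0 counts in the same 2 libraries, and their weight in r was not tested.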

How the data were processed

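Newborn frontal tissue was frozen and microdissected, and cDNA made with SMART-seq v4 was turned into Nextera XT libraries, per the labels' protocols and the design text. The authors deposited 1 table of raw counts of fragments per gene with a column of gene length, made by featureCounts 1.6.2 in pairs without regard to strand on Ensembl 94 gene models of GRCm38, per the file headers, after alignment with STAR 2.6, per the submitters' processing notes. Its 24 columns of libraries include 18 whose names match sample titles, and the other 6 were not read. Symbols were matched by Ensembl ID to GENCODE M21 for 54409 of 54532 genes. Since strand was ignored, reads of a gene and of an antisense partner cannot be told apart.

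CPM values are counts over the library total, and values per kilobase use the deposited length. Fits used edgeR 4.0.16 in R 4.3.3 (quasi-likelihood test after filterByExpr at 10 counts and a total of 15, with TMM scaling), with Benjamini-Hochberg adjustment over all genes tested and a threshold of 0.05. Standard errors (SE) of edgeR fits, in text and figures, are the absolute log2 fold change over the square root of the F statistic. They were not estimated separately from the test. The dKO test within a region used 6 group terms plus the prefix of the title, and that on row sums (3 regions added up) used genotype plus prefix. The test within a region had no term for the row. Its spread came from all 18 libraries taken as independent, although those of a row were correlated. Contrasts of regions and their interaction with genotype were fitted with the row as a block, since the 18 pairs of regions of a row deviated together from their group means (correlations 0.340 to 0.859). The 9 pairs of dKO and control of a set did not all do so (-0.240 to 0.586, 6 over 0.1), so sets are not a block. Within a set, log2 CPM values (prior count 2) were subtracted. No 2 libraries of a group agreed within sampling noise. Alternatives were DESeq2 1.42.0, RLE scaling, dropping the filter, other terms, and leaving out libraries or rows. The exact permutation test of the order of regions and its alternatives were added after the values were seen. The fits were tested on simulated data.

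Both Cyp26 genes and all gene lists were chosen with earlier results of these data known. Of the other retinoid genes, those past the threshold in any comparison were named, and otherwise up to 2 per role and comparison with the lowest p, and for likeness the 6 highest correlations per member among genes with a mean of at least 5 CPM, without predicted genes, Y-linked genes and Xist. A few genes that these rules name are not reported here. Intervals and floors (95% confidence, 3 counts for a floor) cover counting error only. Figures were drawn with matplotlib 3.10.9, and sequences come from RefSeq tables (GRCm38.p6), which held promoters of both members.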

Additional observations from a re-analysis of the deposited data

Results flagged for a closer look

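The effect of the double mutation differed between medial and orbital tissue for 4 of the other retinoid genes, 3 of which are named here, by an interaction test past an adjusted p of 0.05 in edgeR, where 1.47% of all genes passed. The log2 difference of the effects (medial minus orbital) was 1.62 for Crabp2 (adjusted p = 0.0303) and 1.54 for Dhrs3 (adjusted p = 0.0290). It was -1.50 for Nrip1 (adjusted p = 0.0303). For Cyp26b1 and Cyp26a1 the same test gave -1.27 and -0.14 and did not pass. In this test all 12 meningeal fibroblast genes had positive differences, with a median of 0.998, and 0 passed in edgeR or DESeq2, while 7 had an unadjusted p under 0.05 and 7 passed in edgeR without the filter. All 16 cell cycle genes were positive as well, and 3 passed. The part of these cell types in the values of Crabp2 and Dhrs3 was not tested.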

How the results depend on the processing

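Over 26 results for the 2 Cyp26 genes and 282 alternatives, 255 kept the sign and the side of the threshold, 7 passed where the reported fit did not, 20 changed sign and 0 lost a call, none having been made. The cause was not tested. Without the filter on low counts, Cyp26b1 passed for dKO against control in medial tissue (-1.77) and in the summed rows (-1.15) and for medial minus orbital tissue in dKO (-1.37), and Cyp26a1 for orbital minus dorsal tissue in dKO (2.16) and in controls (2.02). With DESeq2 they passed for the summed rows (Cyp26b1, -1.12) and for orbital minus dorsal controls (Cyp26a1, 2.13). With RLE size factors the Cyp26b1 difference between medial and dorsal controls was -0.0011.

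Leaving out 1 library or row moved Cyp26b1 between -0.36 and 2.22 for orbital minus dorsal dKO, -1.09 and 0.55 for medial minus dorsal dKO, -0.14 and 0.48 for orbital minus dorsal controls, -0.74 and 0.46 for medial minus dorsal controls, and -0.66 and 0.41 for medial minus orbital controls. Its dKO effect moved between -0.43 and 2.15 (orbital minus dorsal) and between -1.10 and 0.54 (medial minus dorsal). Cyp26a1 moved between -1.02 and 0.16 for dorsal dKO against control, and its dKO effect between -0.52 and 0.65 (orbital minus dorsal), -0.73 and 0.88 (medial minus dorsal) and -0.50 and 0.26 (medial minus orbital).

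With the set as a replicate block, Cyp26b1 had log2 fold changes of -0.61, -1.84 and -1.11 in orbital, medial and dorsal tissue and -1.15 in the sums, and no Cyp26 call changed. With no replicate block for the row, the Cyp26a1 dKO effect, medial minus dorsal, was 0.0081 instead of -0.01. Counts of all genes past the threshold depended on the settings. Between dKO and control they were 7 in orbital (2 to 430 over the alternatives), 389 in medial (19 to 1120) and 4 in dorsal tissue (2 to 62), and 5 in the sums (3 to 359). In dKO they were 91 for orbital minus dorsal (4 to 339), 392 for medial minus dorsal (29 to 1299) and 3 for medial minus orbital tissue (0 to 197). In controls they were 2965 (326 to 4128), 92 (1 to 356) and 1690 (19 to 2897) for the same differences, and for the dKO effect 0 (0 to 578), 0 (0 to 72) and 275 (0 to 1692). Cyp26a1 had 0 to 299 counts in a library, and the part of depth in its spread was not tested.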

Other observations

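Other enzymes of the pathway showed the following levels. Aldh1a1, a retinaldehyde dehydrogenase, had 1.31, 2.86 and 3.64 CPM in orbital dKO and 3.77, 4.32 and 9.75 CPM in orbital control libraries, without overlap, and did not pass (log2 fold change -1.25, SE 0.499, adjusted p = 0.281, edgeR). Aldh1a3, a further dehydrogenase of this family, had 3.29, 4.76 and 3.30 CPM in medial dKO and 2.94, 0.258 and 2.05 CPM in medial control libraries, also without overlap (0.80, SE 1.04, adjusted p = 0.795, edgeR).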
